A study of Mus musculus with 6 samples.

Results

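Amino acid and neurotransmitter carriers of 7 solute carrier families were examined in choroid plexus from mice of 2 ages. The members are the probe sets of the deposited analysis table whose gene symbol is Slc1a, Slc3a, Slc6a, Slc7a, Slc36a, Slc38a or Slc43a followed by a number, 63 of 25206 probe sets in all, where 1 probe set stands for 1 gene. The Slc6a family gave 20 of them, Slc7a 16, Slc38a 11, Slc1a 7, Slc36a 4, Slc43a 3 and Slc3a 2. One is not a carrier by name, Slc7a6os, a separate gene on the strand opposite Slc7a6, and it is kept because the symbol meets the rule. Each of 6 C57BL/6J mice gave 1 expression array, 3 from mice aged 2 to 3 months (young) and 3 from mice aged 20 to 22 months (aged). The tissue was whole choroid plexus, so each value sums over its epithelium, vessels, stroma, immune cells and whatever adjoining brain or meninges came with it.

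The choroid plexus epithelium separates blood from cerebrospinal fluid, and its carriers keep most amino acids in that fluid far below their plasma levels. Most of these proteins couple uptake to the sodium gradient, while others exchange one amino acid for another. Slc1a and Slc6a carriers also clear glutamate, GABA, glycine and the monoamines released by neurons. The Slc7a light chains reach the plasma membrane only when bound to a heavy chain of the Slc3a family.

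Values are log2 expression as deposited, and differences are aged minus young on that scale. As a guide to background, the 1350 probe sets of olfactory (Olfr) and vomeronasal (Vmn) receptors, genes with little use outside the nose, were summarised by their mean over the 6 arrays, with 1.76 as the median and 3.46 as the 95th percentile. Of the 63 members 47 lay above that percentile, as did 59.2% of all probe sets. The members nearest to it were Slc6a18 at 3.41 just below and Slc6a7 at 3.47 just above. Array medians ran from 4.03 to 4.09. Markers of the choroid plexus epithelium were all above the guide (12 of 12), with a list mean of 10.87 to 11.17 on the young and 11.07 to 11.15 on the aged arrays. The highest value was 12.13 on young replicate 1, while the other arrays reached 13.29 to 13.32. The epithelial markers Ttr (12.13), Enpp2 (12.08), Kl (11.51), Kcnj13 (11.67) and Folr1 (10.34) were lowest on that array, and the other epithelial markers were not. Slco1c1 (11.19), listed here as a brain barrier endothelium marker, lay within the range of the other arrays. The cause was not tested. Below, 3 values in a row are replicates 1, 2 and 3 of a group.

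No carrier changed with age at the threshold used, a Benjamini-Hochberg adjusted p under 0.05 over all probe sets in limma. The count was 0 of 63, where 0.0793% of all probe sets were called (0.0595% higher and 0.0198% lower), and 0 of the 47 above the guide, where 0.134% were called (0.101% higher and 0.0335% lower). The smallest adjusted p of a member was 0.398. At an unadjusted p under 0.05, 9 members differed (14.3%), against 7.77% of all probe sets. Among these, Slc7a5, Slc6a6, Slc38a7, Slc6a8 and Slc6a17 were the higher ones in aged tissue (7.94% of members against 3.82%), and Slc43a3, Slc6a15, Slc38a11 and Slc6a14 the lower ones (6.35% against 3.96%). These counts of 5 and 4 were 1 and 2 without aged replicate 2, 2 and 3 without young replicate 1, and 1 and 5 without young replicate 2. Of the 47 members above the guide 8 were among them (17.0% against 10.2% of all probe sets above it, of which 4.75% were higher and 5.45% lower), since Slc6a14 lay below. The groups did not overlap for 9 of 63 members (14.3%, 4 higher and 5 lower), near the 13.6% of all probe sets (6.69% higher and 6.93% lower). Above the guide this held for 8 of 47 (17.0%), against 16.4% of all (7.71% higher and 8.66% lower). An exact test of 3 against 3 arrays cannot give a p below 0.1. The median difference was 0.04 over the members and -0.00183 over all probe sets, with 34 members higher and 29 lower. The number of arrays limits what these counts can show, because the 95% interval of the difference lay within 0.5 of zero for 17 of the 47 members above the guide and within 1 for 36.

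**Figure D1:**
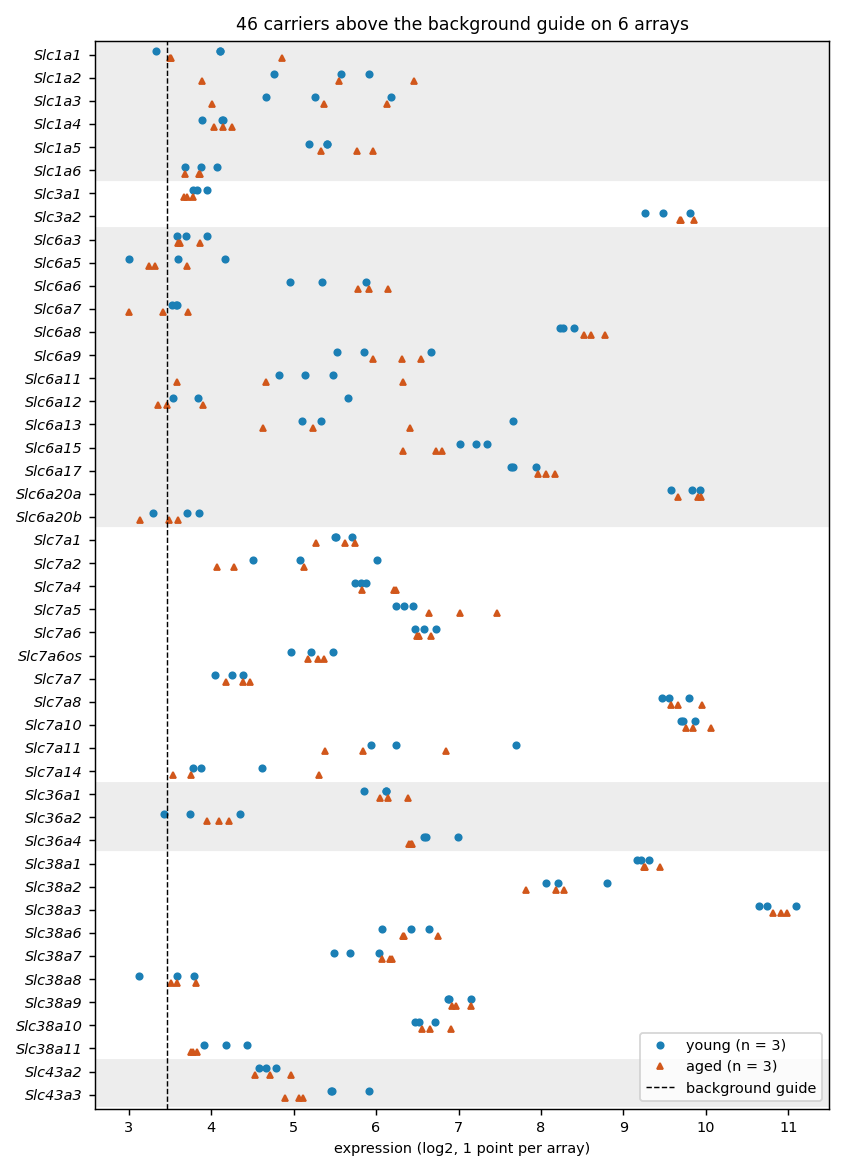
Log2 expression (x axis) of 46 of the 47 carriers above the background guide (y axis, shaded by family), with 1 circle per young array and 1 triangle per aged array and the guide of 3.46 as a dashed line. The groups overlap for most carriers, while the aged points of Slc7a5, Slc6a8, Slc6a17 and Slc38a7 lie right of the young points and those of Slc43a3, Slc6a15, Slc36a4 and Slc38a11 left of them.

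Of the 2 heavy chains neither was called, and both lay above the guide. Slc3a2 (probe set 17254_at), the heavy chain also known as CD98, stood at 9.26, 9.48 and 9.81 in the young and 9.70, 9.86 and 9.69 in aged tissue, far above the guide on each array. The groups overlapped, and the 95% interval of the difference, 0.23, ran from -0.13 to 0.58 (limma adjusted p = 0.771). Slc3a1 (20532_at), the heavy chain of the cystine carrier of kidney and gut, lay close to the guide at 3.95, 3.78 and 3.83 in the young and 3.67, 3.78 and 3.71 in the aged mice, with an interval of -0.37 to 0.11.

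All 6 light chains that pair with Slc3a2 lay above the guide, 4 of them higher and 2 lower in aged tissue, with a median difference of 0.12. Slc7a5 (20539_at), or LAT1, which exchanges large neutral amino acids such as leucine across barriers, stood at 6.34, 6.24 and 6.45 in the young and at 6.64, 7.47 and 7.02 in aged choroid plexus. Each aged value lay above each young one, with the highest on aged replicate 2. The difference of 0.70 (SE 0.20, 95% interval 0.23 to 1.16), a 1.62-fold level, did not pass (limma adjusted p = 0.455). When each array was left out in turn it ranged from 0.485 to 0.90, and the lowest value came without aged replicate 2. Its unadjusted p stayed under 0.05 in 6 of 6 such fits.

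The other light chains showed smaller differences. Slc7a8 (50934_at), or LAT2, which carries a wider range of neutral amino acids, stood at 9.79, 9.46 and 9.55 in the young and 9.58, 9.95 and 9.67 in the aged mice. Slc7a10 (53896_at), or Asc-1, a carrier of small neutral amino acids including D-serine, was at 9.72, 9.69 and 9.87 and then 9.76, 10.06 and 9.84. The groups overlapped for both, and the intervals reached from -0.20 to 0.46 for Slc7a8 and from -0.16 to 0.41 for Slc7a10. Slc7a7 (20540_at), a light chain for cationic amino acids that macrophages also use, stood at 4.38, 4.25 and 4.04 in the young and 4.38, 4.18 and 4.47 in the aged mice, a difference of 0.12 (limma adjusted p = 0.867). Markers of macrophages (8 of 8 above the guide) had list means of 4.62 to 5.20 in young and 5.37 to 6.08 in aged tissue. Of these 8 genes 6 were higher at an unadjusted p under 0.05 (3.82% of all probe sets). Mrc1 was lower in mean, at 4.90 in young and 4.61 in aged, and the groups of Csf1r overlapped. The part of macrophages in Slc7a7 was not tested. The groups of Slc7a7 overlapped. Slc7a6 differed by -0.03 and Slc7a6os by 0.06. The table does not say whether probes of these 2 genes on opposite strands share sequence.

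Slc7a11 (26570_at), or xCT, which imports cystine for glutathione synthesis in exchange for glutamate, varied more between mice than between ages. It stood at 6.24, 5.93 and 7.69 in the young and 6.84, 5.39 and 5.84 in the aged mice. Young replicate 3 was the highest array and aged replicate 2 the lowest, and the difference of -0.60 had an interval of -1.76 to 0.57 (limma adjusted p = 0.817). Without young replicate 3 the difference was -0.06.

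Slc7a11 is a known target of the amino acid response, in which the factor Atf4 binds a composite element, and of the antioxidant response driven by Nfe2l2. The 250 bases before each annotated gene start were therefore searched on both strands for TGATGNAA, a core of the amino acid response element, and for TGACNNNGC, a core of the antioxidant response element. RefSeq (GRCm38.p6) gave 66 such windows for 45 of the 63 members. The other members, among them Slc7a5, Slc6a6, Slc6a8, Slc6a15 and Slc43a3, had no window and were not searched. The first motif occurred in 3 windows of 2 members (4.55% of windows, against 3.45% of 32851 windows of all genes), Slc7a11 and Slc7a7. The windows are shown because they hold these matches, in capitals, for the only 2 searched members with this motif. The second motif occurred in 9 windows of 8 members (13.6% against 10.2%), among them Slc6a9, Slc6a11, Slc6a13 and Slc38a2, and was not in the Slc7a11 window.
Slc7a11, chr3:50443614-50443863, minus strand: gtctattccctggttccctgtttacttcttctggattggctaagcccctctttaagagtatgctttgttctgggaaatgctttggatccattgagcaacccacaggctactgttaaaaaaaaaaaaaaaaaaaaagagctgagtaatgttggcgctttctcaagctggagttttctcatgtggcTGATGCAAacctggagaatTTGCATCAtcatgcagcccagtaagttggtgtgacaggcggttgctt
Slc7a7, first start, chr14:54417945-54418194, minus strand: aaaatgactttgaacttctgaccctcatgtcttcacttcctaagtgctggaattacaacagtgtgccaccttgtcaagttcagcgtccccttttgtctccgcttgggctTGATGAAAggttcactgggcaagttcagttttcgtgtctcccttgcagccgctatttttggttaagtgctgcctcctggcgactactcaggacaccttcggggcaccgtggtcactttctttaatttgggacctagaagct
Slc7a7, second start, chr14:54417703-54417952, minus strand: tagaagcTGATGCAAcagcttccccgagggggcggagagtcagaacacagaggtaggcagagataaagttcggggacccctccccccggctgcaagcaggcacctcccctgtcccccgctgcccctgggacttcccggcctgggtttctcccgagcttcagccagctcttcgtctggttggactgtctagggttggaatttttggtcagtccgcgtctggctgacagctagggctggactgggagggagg
In the Slc7a11 window the 2 matches face each other on opposite strands, with their first bases 66 and 47 bases before the start. In the Slc7a7 windows the match begins 141 and 243 bases before the start. These matches describe the sequence and are not evidence of binding.

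Among 23 genes of the amino acid response itself (of 24 listed), limma called 0, and an unadjusted p under 0.05 was met by Fgf21 and Ddit4, 1 in each direction (background 3.82% and 3.96%). Their median difference was -0.01. Atf4, given although it falls outside the rule for named genes, stood at 7.11 ± 0.11 in young and 7.23 ± 0.08 in aged (SD, n = 3), and the stress-induced mTOR inhibitor Ddit4 at a mean of 5.16 and then 4.75 (limma adjusted p = 0.576). Fgf21, a hormone gene induced by amino acid lack in liver, lay under the guide in both groups, at 3.03 and 3.40. In the glutathione list (14 genes, 0 called by limma, 2 higher and 1 lower unadjusted against the same background), Ggt7, a member of the gamma-glutamyl transferase family, had means of 4.38 (young) and 4.97 (aged), with a limma adjusted p of 0.425. The dipeptidase Dpep1, also used here as a fibroblast marker, was at 5.25 and 4.88.

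Of the cationic amino acid carriers and their relatives (5 members, 4 above the guide), none reached an unadjusted p under 0.05. Slc7a1 (11987_at), the CAT1 carrier of arginine and lysine, stood at 5.70, 5.50 and 5.51 in the young and at 5.75, 5.63 and 5.27 in the aged mice, with an interval of -0.37 to 0.32. Slc7a4 differed by 0.28 (interval -0.03 to 0.60), and Slc7a3 lay under the guide. Slc7a2, an inducible arginine carrier, and Slc7a14, a relative of the cationic amino acid carriers, are given below with the carriers that varied most between mice. The other 4 light chains, Slc7a9, Slc7a12, Slc7a13 and Slc7a15, had means between 1.65 and 2.96, within the background range.

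The carriers of taurine and creatine were both higher in aged tissue without passing. Slc6a8 (102857_at), the creatine carrier, stood at 8.23, 8.27 and 8.39 in the young and 8.52, 8.77 and 8.60 in aged choroid plexus. The groups did not overlap, and the difference was 0.34 (SE 0.12, interval 0.07 to 0.60, limma adjusted p = 0.541). Its unadjusted p was under 0.05 in 3 of 6 fits with an array left out. Slc6a6 (21366_at), the taurine carrier, was at 5.34, 4.96 and 5.87 in the young and 5.91, 6.15 and 5.78 in the aged mice. Young replicate 3 exceeded aged replicate 3, so its groups overlapped, and the difference of 0.56 (interval 0.03 to 1.08, limma adjusted p = 0.612) ranged from 0.34 without young replicate 2 to 0.80 without young replicate 3, with an unadjusted p under 0.05 in 2 of 6 such fits.

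Slc6a15 and Slc6a17, related carriers of branched-chain amino acids and proline, differed in opposite directions. Slc6a15 (103098_at), or B0AT2, a plasma membrane carrier, stood at 7.21, 7.34 and 7.02 in the young and 6.80, 6.33 and 6.73 in the aged mice. Each aged value lay below each young one, and the difference was -0.57 (SE 0.16, interval -0.94 to -0.21, limma adjusted p = 0.435). It lay between -0.66 and -0.43 when each array was left out in turn, with an unadjusted p under 0.05 in 6 of 6 fits. By contrast, Slc6a17 (229706_at), or NTT4, a carrier of synaptic vesicles in neurons, was at 7.64, 7.66 and 7.94 in the young and 8.17, 8.06 and 7.96 in the aged mice. Its groups did not overlap, although young replicate 3 and aged replicate 3 lay close together, and the difference was 0.32 (interval 0.03 to 0.61, limma adjusted p = 0.599). Its unadjusted p was under 0.05 in 2 of 6 fits with an array left out. Neuron markers (6 of 7 above the guide) had list means of 5.21 to 5.45 in young and 4.51 to 6.65 in aged tissue, lowest on aged replicate 2 and highest on aged replicate 1. Slc6a17 was also highest on aged replicate 1, but on aged replicate 2 it stood at 8.06, above each young value. Its lowest array was young replicate 1, and the part of neurons in its values was not tested.

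The imino acid carrier Slc6a20a (102680_at), which takes up proline, stood at 9.84, 9.58 and 9.93 in the young and 9.67, 9.91 and 9.93 in the aged mice, with an interval of -0.26 to 0.37. The groups overlapped. Its close relative Slc6a20b lay near the guide, with a 6-array mean of 3.51, and differed by -0.21, and the 2 may share probe sequence. Collectrin, Cltrn, a membrane protein that in kidney brings Slc6a19 and its relatives to the cell surface, stood at 7.41 ± 0.30 in young and 8.14 ± 0.51 in aged (SD, n = 3, limma adjusted p = 0.551). Slc6a19 itself, with Slc6a14, Slc6a16 and Slc6a18, had means between 2.46 and 3.41, under the guide. Slc6a14, a broad carrier of neutral and cationic amino acids, stood there at 3.18 in young and 2.86 in aged, with groups that did not overlap. Slc6a7, the brain proline carrier, lay at the guide and differed by -0.19.

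Carriers of monoamines were at or near background. The noradrenaline and serotonin carriers Slc6a2 and Slc6a4 had 6-array means of 2.63 each, and the dopamine carrier Slc6a3 3.72. Of the glycine carriers, Slc6a9 (14664_at), or GlyT1, which glia and other cells use, stood at 5.85, 5.53 and 6.66 in the young and 6.55, 5.96 and 6.32 in the aged mice. Its groups overlapped, and the difference of 0.26 had an interval of -0.40 to 0.92 (limma adjusted p = 0.864). Slc6a5, the glycine carrier of inhibitory nerve endings, had a mean of 3.51, near the guide. The enzyme list holds the glycine-degrading Gldc, at 6.90, 6.87 and 6.94 in the young and 7.49, 7.66 and 7.32 in the aged mice. Its groups did not overlap, and the difference was 0.59 (SE 0.12, limma adjusted p = 0.266). Gcsh, Dld and Amt, which act with Gldc and fall outside the rule for named genes, differed by -0.39, -0.26 and 0.03. The groups of Gcsh did not overlap, with each aged value below each young one. Over this list of 41 transmitter and amino acid enzymes limma called 0, against 0.0793% of all probe sets, while 1 was higher and 4 were lower by the unadjusted p (3.82% and 3.96% of all). Of these, Th, the enzyme that opens catecholamine synthesis, was at 3.89 in young and 3.53 in aged.

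The glutamate carriers were not called, and those of glia spread widely between mice. Slc1a2 (20511_at) and Slc1a3 (20512_at), or GLT-1 and GLAST, remove glutamate around synapses, mostly into astrocytes. Slc1a2 stood at 5.57, 4.76 and 5.91 in the young and 6.46, 3.89 and 5.55 in the aged mice. Slc1a3 was at 5.26, 4.66 and 6.18 and then at 6.13, 4.01 and 5.37. The aged group thus held both an array near the top and the lowest array of each gene. Differences were -0.12 (interval -1.50 to 1.27) and -0.20 (interval -1.47 to 1.08), and without aged replicate 2 they turned to 0.59 and 0.38. Slc1a1 (20510_at), a glutamate carrier of neurons and epithelia, stood at 4.11, 3.33 and 4.10 in the young and 4.86, 3.52 and 3.501 in the aged mice. Without aged replicate 1, its highest array, its difference of 0.11 turned to -0.34. Young replicate 2 lay under the guide, and aged replicates 2 and 3 just above it. Slc1a6 differed by -0.08, and Slc1a7 lay under the guide.

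Neutral amino acid carriers of the same family varied less. Slc1a5 (20514_at), or ASCT2, an exchanger of glutamine, stood at 5.41, 5.19 and 5.41 in the young and 5.33, 5.77 and 5.96 in the aged mice. Aged replicate 1 lay among the young values, and the difference of 0.35 had an interval of -0.05 to 0.75 (limma adjusted p = 0.687). Slc1a4 (55963_at), or ASCT1, a carrier of serine and alanine, was at 4.13, 3.89 and 4.14 in the young and 4.25, 4.03 and 4.15 in the aged mice, with an interval of -0.20 to 0.37.

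Carriers of GABA and betaine are represented here by 3 genes, Slc6a11, Slc6a12 and Slc6a13. Each was lower in mean in aged tissue, with differences of -0.77 to -0.29 and overlapping groups. Slc6a13 (14412_at), or GAT2, a GABA carrier of the meninges and liver, stood at 5.10, 5.34 and 7.66 in the young and 6.42, 4.63 and 5.24 in the aged mice. Slc6a12 (14411_at), the carrier of betaine and GABA, was at 3.54, 3.84 and 5.66 and then at 3.90, 3.46 and 3.36. Young replicate 3 stood apart in both, and without it the Slc6a13 difference of -0.61 turned to 0.21 and the Slc6a12 difference of -0.77 shrank to -0.12. The other Slc6a12 values, 3.36 to 3.90, lay near the guide, where differences are compressed. Slc6a11, GAT3 of astrocytes, stood at 5.13, 4.83 and 5.48 in the young and 6.33, 3.58 and 4.67 in the aged mice. Its highest array was aged replicate 1 and its lowest aged replicate 2.

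**Figure D2:**
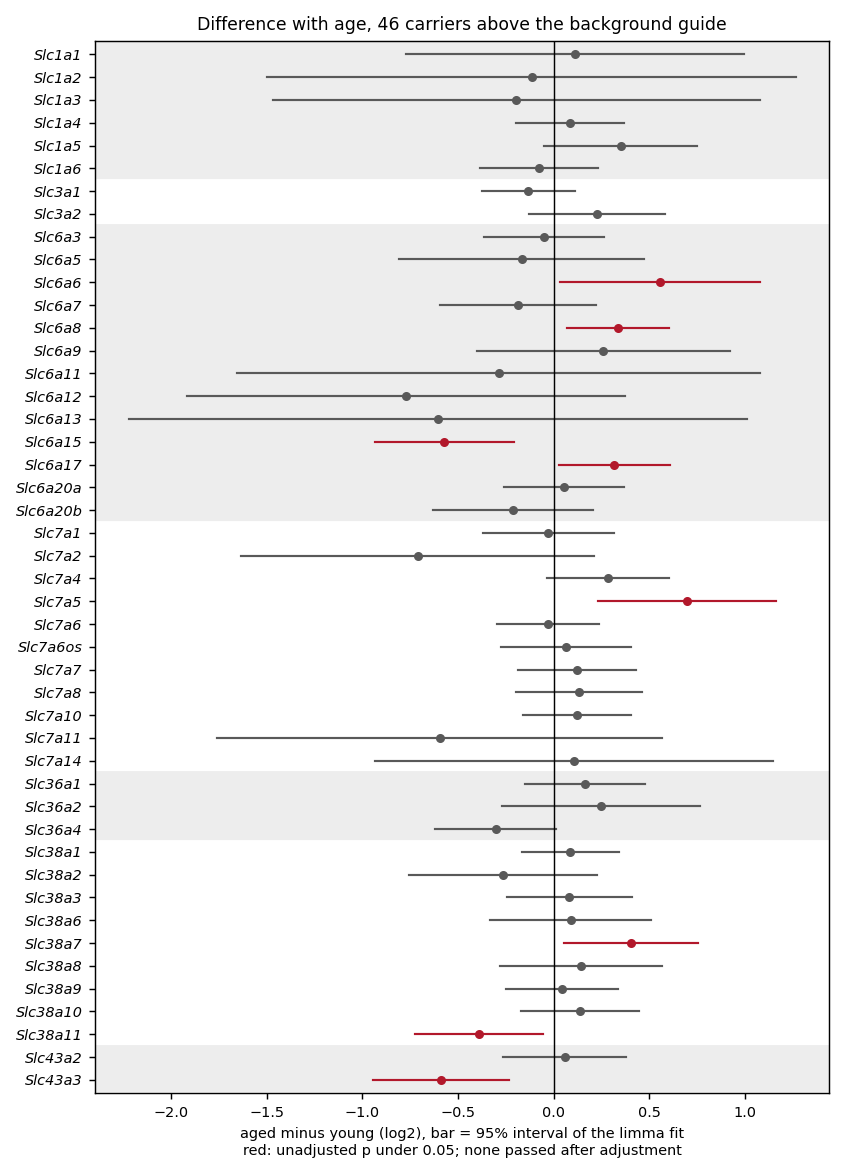
Aged minus young difference in log2 expression (x axis) for 46 of the 47 carriers above the background guide (y axis, shaded by family), with the 95% interval of the limma fit as a bar. The 8 carriers in red had an unadjusted p under 0.05, none passed after adjustment, and the widest intervals belong to Slc6a13, Slc1a2 and Slc6a11.

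The spread between mice of 1 age was itself uneven over the carriers. The pooled SD within groups had a median of 0.20 over the 47 members above the guide and 0.17 over all probe sets above it, and 12 of the members exceeded 0.352, the 90th percentile over those probe sets. Among them were Slc6a13, Slc1a2, Slc6a11, Slc1a3, Slc7a11, Slc6a12, Slc7a14, Slc7a2, Slc1a1, Slc6a9 and Slc6a5. Of the 12, 8 were highest on young replicate 3 and 4 on aged replicate 1, and 8 were lowest on aged replicate 2. Over all 47 members above the guide, 27.7% were highest on young replicate 3, 23.4% were highest on aged replicate 1 and 25.5% were lowest on aged replicate 2. Among all probe sets above the guide 13.0% were highest on young replicate 3, 12.5% were highest on aged replicate 1 and 26.1% were lowest on aged replicate 2. The 12 were chosen for their spread and these probe sets were not, so the shares of the 12 have no like comparison here.

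Marker lists of other cell types also varied between arrays. The astrocyte list (6 of 6 above the guide) had means of 6.00, 5.79 and 6.66 in the young and 6.94, 5.07 and 6.14 in aged tissue. The neuron list had 5.35, 5.21 and 5.45 in the young and 6.65, 4.51 and 5.01 in the aged mice, so both lists were highest on aged replicate 1 and lowest on aged replicate 2, as were Slc1a2, Slc6a11 and Slc7a14. Slc1a3 was lowest on aged replicate 2 too, but its highest array was young replicate 3. The single genes of both lists had the same highest and lowest arrays as the list means, except Gad1, Rbfox3, Gja1 and Aldh1l1. Gad1 was lowest on aged replicate 1 (4.22), and Aldh1l1 stood at 6.56 there and at 6.84 on aged replicate 2. Slc7a14 stood at 3.87, 3.78 and 4.62 in the young and 5.31, 3.54 and 3.76 in the aged mice. The list of stromal and meningeal fibroblasts (8 of 8 above the guide) had 7.60, 7.82 and 8.29 in the young and 7.65, 7.22 and 7.51 in the aged mice, highest on young replicate 3, as were Slc6a12, Slc6a13, Slc7a2 and Slc7a11. Slc7a2 stood at 5.08, 4.51 and 6.01 in the young and 5.12, 4.07 and 4.27 in the aged mice. The oligodendrocyte list (6 of 6 above) was also highest on young replicate 3 and lowest on aged replicate 2, as were Slc6a13, Slc7a2 and Slc7a11, with means of 6.46, 6.19 and 7.45 and then 6.40, 5.05 and 6.85. The mural cell list (5.87) and the brain barrier endothelium list (7.58) had their highest means on young replicate 3 as well. The latter list ran from a 6-array mean of 3.62 for Cldn5 to 11.14 for Slco1c1, so its level need not reflect vessels alone. The endothelial list was highest on young replicate 1 (5.86) and the erythroid list on young replicate 2 (3.98). Of the astrocyte, neuron and fibroblast lists only the neuron marker Tubb3 lay under the guide, at 3.25. In bulk tissue a smaller number of cells of a type and less RNA per cell cannot be told apart, and the part of these cell types in the carrier values was not tested.

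**Figure D3:**
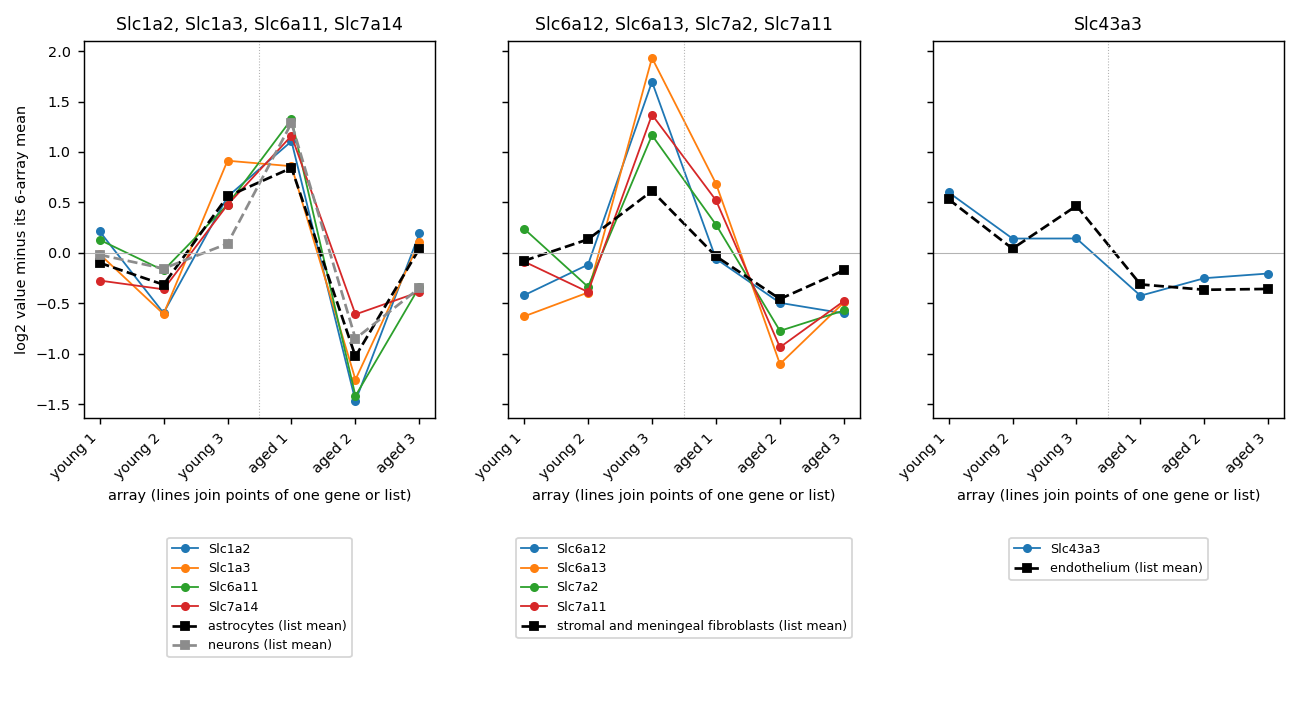
Log2 value minus its 6-array mean (y axis) on each of the 6 arrays (x axis) for 9 carriers in 3 panels, with marker list means as dashed lines. Slc1a2, Slc6a11 and Slc7a14 peak on aged replicate 1 with the astrocyte and neuron lists, and Slc1a3 peaks on young replicate 3. Slc6a12, Slc6a13, Slc7a2 and Slc7a11 peak on young replicate 3 with the fibroblast list. Slc43a3 and the endothelial list are both lower on the 3 aged arrays. Slc6a11, Slc7a2 and Slc7a14 were added after their values were seen. The oligodendrocyte, mural cell and brain barrier endothelium lists, also highest on young replicate 3, are not drawn.

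The Slc43a family held the member with the smallest p. Slc43a3 (58207_at), an equilibrative carrier of purine nucleobases rather than of amino acids, stood at 5.92, 5.46 and 5.46 in the young and 4.89, 5.07 and 5.11 in aged choroid plexus. Each aged value lay below each young one, and the difference was -0.59 (SE 0.15, interval -0.94 to -0.23, limma adjusted p = 0.398). It lay between -0.665 and -0.44 when each array was left out, with an unadjusted p under 0.05 in 6 of 6 fits. The endothelial marker list (7 of 8 above the guide, Esam below it) had means of 5.86, 5.37 and 5.80 in the young mice. Its means in the aged mice were 5.02, 4.97 and 4.97. Of its 8 genes 7 were lower at an unadjusted p under 0.05, against 3.96% of all probe sets. The mural cell list (6 of 6 above) had 5.09, 5.09 and 5.87 and then 4.90, 4.83 and 4.75, so its groups did not overlap either. Of its 6 genes 2 were lower at an unadjusted p under 0.05, against 3.96% of all probe sets. In the fibroblast list 4 of 8 genes were lower at an unadjusted p under 0.05 (3.96% of all probe sets), with a median difference of -0.46. The brain barrier endothelium list (6 of 6 above) had 7.22, 6.87 and 7.58 and then 7.15, 7.01 and 6.94, so its groups overlapped. Of its genes 4 were lower and 2 higher in mean, with 0 at an unadjusted p under 0.05. The part of these cell types in the Slc43a3 values was not tested. Slc43a2 (215113_at), or LAT4, an exit route for branched-chain amino acids, was at 4.67, 4.58 and 4.79 in the young and 4.97, 4.71 and 4.53 in the aged mice, with overlapping groups. Slc43a1, or LAT3, lay under the guide at 3.06 in young and 2.92 in aged.

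Of the 11 sodium-coupled neutral carriers of the Slc38a family 9 lay above the guide, and the median difference over the family was 0.08. Slc38a3 (76257_at), or SNAT3, which moves glutamine, stood at 10.64, 10.74 and 11.09 in the young and 10.99, 10.92 and 10.81 in the aged mice. Slc38a1 (105727_at), or SNAT1, was at 9.31, 9.16 and 9.21 and then at 9.44, 9.26 and 9.24. The differences were 0.08 and 0.09, with overlapping groups and intervals of -0.25 to 0.41 and -0.17 to 0.34. Slc38a2 (67760_at), or SNAT2, which cells raise when amino acids run short, stood at 8.21, 8.06 and 8.80 in the young and 8.28, 7.82 and 8.18 in the aged mice. Its difference of -0.27 became -0.04 without young replicate 3, its highest array.

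Lysosomal members of the family gave one difference at the unadjusted level. Slc38a7 (234595_at), or SNAT7, which releases glutamine from lysosomes, stood at 5.49, 5.69 and 6.04 in the young and 6.07, 6.16 and 6.19 in the aged mice. The groups did not overlap, though young replicate 3 came close to the lowest aged array, and the difference was 0.40 (SE 0.15, interval 0.05 to 0.76, limma adjusted p = 0.576). With an array left out, the unadjusted p was under 0.05 in 2 of 6 fits. Slc38a9 (268706_at), the lysosomal arginine sensor upstream of mTORC1, was at 7.15, 6.88 and 6.87 in the young and 6.92, 6.97 and 7.15 in the aged mice, with an interval of -0.25 to 0.34. The lysosomal exporter of cationic amino acids outside the 7 families, Slc66a1, stood at 5.50 ± 0.11 in young and 5.83 ± 0.13 in aged (SD, n = 3, limma adjusted p = 0.569). Among 32 partners and sensing genes, which include the Lamtor and Rag subunits that recruit mTORC1 to lysosomes, limma called 0, against 0.0793% of all probe sets, and the median difference was -0.05. At an unadjusted p under 0.05, 2 were higher and 4 lower (3.82% and 3.96% of all probe sets), and groups did not overlap for 2 higher and 9 lower genes (6.69% and 6.93% of all). The adhesion receptor chain Itgb1, a partner of Slc3a2, stood at 7.86 and 7.50.

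Slc38a11 (320106_at), a member of unsettled substrate, stood at 4.17, 3.92 and 4.44 in the young and 3.75, 3.78 and 3.83 in the aged mice. The groups did not overlap, and the difference was -0.39 (SE 0.14, interval -0.73 to -0.06, limma adjusted p = 0.576), with aged values near the guide, where differences are compressed. The unadjusted p was under 0.05 in 2 of 6 fits with an array left out. The remaining members above the guide, Slc38a6, Slc38a8 and Slc38a10, differed by 0.09, 0.14 and 0.14, and Slc38a4 and Slc38a5 lay under it.

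Of the 4 proton-coupled carriers, Slc36a1 (215335_at), or PAT1, which exports small amino acids from lysosomes, stood at 6.12, 5.86 and 6.12 in the young and 6.39, 6.04 and 6.15 in the aged mice, with an interval of -0.15 to 0.48. Slc36a4 (234967_at), a carrier of proline and tryptophan, was at 6.58, 6.996 and 6.60 in the young and 6.44, 6.40 and 6.43 in the aged mice. Its aged values lay below the young ones within a narrow range, and the difference of -0.30 had an interval of -0.62 to 0.01 (limma adjusted p = 0.653). It moved to -0.17 without young replicate 2, its highest array. Slc36a2 differed by 0.25, and Slc36a3 lay in the background range at 2.13.

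Among 30 other amino acid and transmitter carriers outside the 7 families, limma called 0, the unadjusted p was under 0.05 for 1 gene in each direction (3.82% higher and 3.96% lower of all probe sets), and the median difference was 0.02. The lower one was the vesicular polyamine carrier Slc18b1, at 8.48 ± 0.11 in young and 8.14 ± 0.15 in aged (SD, n = 3, limma adjusted p = 0.572). The families of the members had median differences of 0.09 for Slc1a, 0.05 for Slc3a, -0.03 for Slc6a, 0.01 for Slc7a, 0.11 for Slc36a, 0.08 for Slc38a and -0.14 for Slc43a, and the last rests on 3 genes.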

How the data were processed

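RNA from 6 choroid plexus samples, 1 mouse each per the labels, was hybridised to expression arrays. The authors deposited log2 expression values per Brainarray probe set, per the file headers, and the submitters' processing notes name RMA and limma 3.14.4. Array model and genome build: not given in the sources used here. Per the file headers, the authors also deposited a comparison by age, with a signed fold and a t score as well as p-values and 2 kinds of q-value, and none of it was used for the results. Their rounded copy differed by at most 0.005. Columns of aged arrays were matched to samples by the array number in the labels.

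R 4.3.3 and limma 3.58.1 (eBayes, 1 term for age) were used to fit all 25206 probe sets, with p-values adjusted over all of them by Benjamini-Hochberg and a threshold of 0.05. The fit was run on simulated arrays with independent noise. The only pass condition was the right sign for differences larger than any carrier difference here. This does not show the power to call the differences reported. Symbols of all 63 members matched RefSeq genes through Entrez identifiers. A further 3 probe sets bear such symbols only in RefSeq (Slc6a19os, Slc36a1os and Slc6a21) and lay under the background guide.

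The members, gene lists and tests were chosen with earlier results of these data known. Values on all arrays are given for members above the background guide with an unadjusted p under 0.05, with groups that do not overlap and a difference of at least 0.3, or in a fixed set known from barrier tissues, 31 in all. Slc6a11, Slc7a2 and Slc7a14 were added after their values were seen. The values of 1 member, which is counted in the totals, are not reported here. In each gene list with no call, the 2 members with the smallest p are given. Marker lists served as values per array, and for some of them the genes with an unadjusted p under 0.05 were also counted. Arrays carry no counts, so their number limits the precision. Alternatives were the rounded table, quantile normalization once more, median centring, a filter on dim probe sets, array weights, a robust variance trend, a replicate block, and leaving out each array.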

Additional observations from a re-analysis of the deposited data

How the results depend on the processing

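No carrier was called in limma under any of the 13 alternatives run, and none of the 5 gene lists gained a call without 1 array, with quantile normalization or with the replicate block. Carriers with an unadjusted p under 0.05 numbered 5 higher and 4 lower, 3 higher and 3 lower with the replicate block, 1 to 7 higher and 2 to 5 lower when each array was left out. Without aged replicate 2 they were 1 and 2, without young replicate 1 they were 2 higher and without young replicate 2 they were 1 higher. Carriers whose groups did not overlap, 4 higher and 5 lower, numbered 5 to 11 and 5 to 12 with an array left out, where fewer arrays make separation easier. Over all probe sets, 15 higher and 5 lower calls became 15 and 8 with median centring and with quantile normalization, 16 and 9 among probe sets above the guide, 17 and 11 with a variance trend, 14 and 1 with the replicate block, and 0 to 27 and 0 to 25 with an array left out (leaving out aged replicate 1 gave 27 and 25, aged replicate 2 or young replicate 2 gave 0 and 0, young replicate 1 gave 2 and 0, aged replicate 3 gave 7 and 1, young replicate 3 gave 6 and 3). The same replicate numbers did not deviate together in all pairs (correlations -0.023, 0.154 and -0.05), so the numbers were not taken to pair the mice. A guide at the 99th percentile of the receptors left 30 of the 47 carriers, and 44 to 47 stayed with an array left out. With array weights the differences of Slc1a2, Slc1a3 and Slc7a1 turned to 0.24, 0.10 and 0.0038. With each array left out the differences ranged from -0.70 to 0.59 for Slc1a2, -0.67 to 0.38 for Slc1a3, -0.34 to 0.34 for Slc1a1, -1.10 to 0.21 for Slc6a13, -0.13 to 0.11 for Slc7a1, -0.0455 to 0.14 for Slc6a20a, -0.0083 to 0.22 for Slc38a3, -0.0233 to 0.14 for Slc38a9 and -0.0596 to 0.16 for Slc43a2. The cause of these changes was not tested.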
